A study of Zea mays with 6 samples.

Results

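The 10 genes described here encode enzymes that make starch in maize (Zea mays), among them copies usually described from leaves and copies best known from the endosperm, the storage tissue of the kernel. They were taken by gene identifier from the 39628 gene models of 6 leaf libraries. Each of the 10 was present in every table. The tested plants were the transgenic line L100, with 3 libraries, and they were set against the inbred line Q319 as wild type, also with 3 libraries. All plants were field-grown and sampled as leaves at leaf stage 6. The labels name neither the transgene nor its promoter, so no targeted gene could be checked, and they do not say whether L100 is a single transformation event. Nothing in the labels says that libraries of a line came from separate plants, so every p-value below reflects the spread among these 3 and 3 libraries, which may be technical.

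Starch is built from ADP-glucose. ADP-glucose pyrophosphorylase makes this sugar donor from large and small subunits, starch synthases add its glucose to growing chains, branching enzymes create side chains, and isoamylase-type debranching enzymes trim them. In maize leaves starch is made mainly in plastids of the bundle sheath and turned over daily, whereas the endosperm stores it and is the tissue in which the classical kernel mutants shrunken, brittle, waxy, dull, sugary and amylose extender were recognised.

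The libraries held 7536583, 7164712 and 6458248 counts in L100 and 8869664, 8320337 and 9922468 counts in wild type (replicates 1 to 3). Levels are CPM on TMM-scaled library sizes, and levels of different genes were compared as CPM per kilobase of the deposited gene length. Wild type replicate 3 stood apart. The chi-square per gene between libraries was 99.5 and 118.8 for that library against wild type replicates 1 and 2, and 52.7 between those; within L100 it lay between 14.4 and 19.8. Leaf identity was clear from the bundle sheath markers me3, ssu1 and rca1, whose summed level was 18647 to 23521 CPM in L100 and 12044 to 19929.6 CPM in wild type. The mesophyll markers pep1, pdk1 (GRMZM2G306345) and mdh6 summed to 83636 to 101290 CPM in L100 and 46913 to 76355 CPM in wild type, without overlap between the lines. Singly, pep1 and pdk1 did not overlap either, whereas mdh6 did. Of all tested genes, 16.2% had groups that did not overlap. None of these markers was called by edgeR (adjusted p = 0.664 for pep1, 0.689 for pdk1 and 0.874 for mdh6). Their part in the results was not tested. Of 10 endosperm marker gene models 7 had 0 counts in every library, including zp16, zp27, fl2 and o2. Of the remaining 3, zp15 reached at most 0.308 CPM, while a gene model of fl1 had 50.5 to 64.3 CPM in L100 and 48.8 to 60.3 CPM in wild type. Of the pair listed for pbf1, GRMZM2G146267 had 54.2 to 78.2 CPM in L100 and 51.9 to 96.9 CPM in wild type. The other, GRMZM2G146283, had 0 counts in every library, and which of the pair is pbf1 was not checked.

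The leaf samples held starch gene transcripts of very unequal abundance, and 4 of the 10 genes made up nearly all of them. These were agpsl1 (GRMZM2G163437) and GRMZM2G391936, both of ADP-glucose pyrophosphorylase, the starch synthase gene ss1 (GRMZM2G129451) and the branching enzyme gene sbe2a (GRMZM2G073054). Together they took 98.6%, 98.5% and 98.2% of the summed level per kilobase of the 10 genes in L100 replicates 1 to 3. In wild type replicates 1 to 3 they took 97.9%, 97.8% and 97.3%. The order of levels began with agpsl1 in both lines, at 464 ± 93.0 CPM per kilobase in L100 and 371 ± 26.5 in wild type (SD, n = 3 each). It was followed by GRMZM2G391936, at 293 ± 33.4 in L100 and 355 ± 108 in wild type. The next places were held by ss1 and then sbe2a in L100 (285 ± 77.8 and 249 ± 42.2 CPM per kilobase), and by sbe2a and then ss1 in wild type (203 ± 27.7 and 156 ± 122). The ranges of ss1 and sbe2a overlapped in both lines. Those of GRMZM2G391936 and ss1 also overlapped in both lines, while those of GRMZM2G391936 and sbe2a overlapped in L100 but not in wild type. Those of agpsl1 and GRMZM2G391936 overlapped in wild type but not in L100.

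A wide step separated these genes from the other members, except for ss1 in wild type replicate 3. The debranching enzyme gene su1 (GRMZM2G138060) stood at 13.2 ± 3.82 CPM per kilobase in L100 and 15.1 ± 6.08 in wild type, and bt2 (GRMZM2G068506) at 5.76 ± 0.599 in L100 and 8.39 ± 4.88 in wild type. In wild type replicate 3, ss1 had 24.3 CPM per kilobase, against 12.8 for su1 in that library and 21.9 for su1 in wild type replicate 2. All libraries of L100 and of wild type had ae1, sh2, du1 and wx1 at 1.497 CPM per kilobase or less. Within that last group the ranges of neighbours overlapped in both lines, except for ae1 above sh2 in L100.

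**Figure D1:**
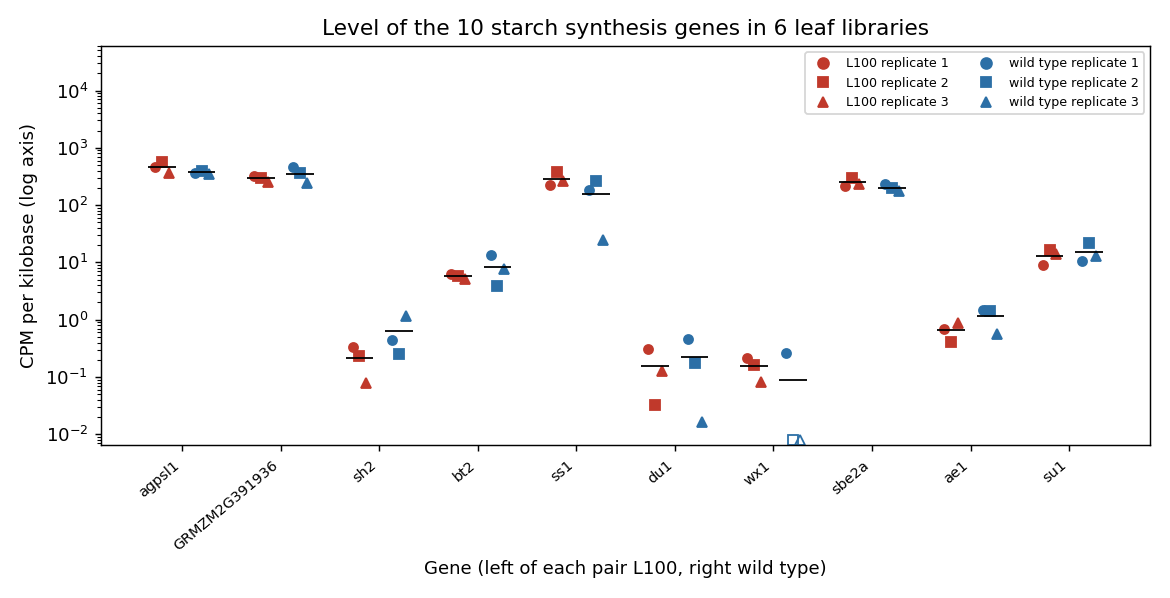
Level of each of the 10 genes in each library, as CPM per kilobase on a log axis, with L100 left of wild type, 1 point per library and a black line at the mean of 3 libraries. Open symbols at the lower edge mark libraries with 0 counts. The genes agpsl1, GRMZM2G391936, ss1 and sbe2a lie far above the others, except for ss1 in wild type replicate 3. That point lies below the other ss1 points and just above the highest su1 point.

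Between the lines, none of the 10 starch genes passed the test. Of the 10 members 7 passed edgeR's filter on low counts and none of these was called by edgeR's quasi-likelihood test, where 0.834% of all 18702 tested genes were called. DESeq2 and limma-voom also called 0 of the 7 (3.05% and 0.829% of all genes), and none had an unadjusted p under 0.05 in edgeR (1878 of all tested genes, or 10.04%). The libraries of the lines overlapped in all 7, and 16.2% of all tested genes had groups that did not overlap. With only 7 genes, neither this nor the lack of calls sets the members apart from all tested genes. In L100, 3 of the 7 had the higher fitted level and 4 the lower, with a median log2 fold change of -0.19; over all tested genes 8894 had the higher level and the median was -0.03. The adjusted p of the 7 lay between 0.692 and 0.901. A p that misses the threshold does not show equal levels, so the 95% interval of each fold change is given with it below.

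The first committed step of starch synthesis is that of ADP-glucose pyrophosphorylase. The gene agpsl1, by its name a leaf small subunit gene, had 721, 865 and 576 CPM in L100 replicates 1 to 3, against 574, 620 and 537 CPM in wild type replicates 1 to 3. The upper part of the range was held by L100 replicates 1 and 2, while L100 replicate 3 lay among the wild type libraries. The fitted level in L100 was 1.25-fold that of wild type, with a 95% interval of 0.798 to 1.96 (log2 fold change 0.32 ± 0.28 SE, edgeR adjusted p = 0.755).

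GRMZM2G391936, which carries no symbol in the name table, had 507, 472 and 404 CPM in L100, against 725, 564 and 385 CPM in wild type. Its lowest and highest libraries were both wild type. The fold change was 0.826 with an interval of 0.498 to 1.37 (log2 -0.28 ± 0.32 SE, edgeR adjusted p = 0.819). The log2 value was -0.04 without wild type replicate 1, -0.26 without wild type replicate 2 and -0.48 without wild type replicate 3. The ratio of agpsl1 to GRMZM2G391936 within a library, per kilobase, was 1.44, 1.86 and 1.45 in L100, against 0.801, 1.11 and 1.42 in wild type. These groups did not overlap, though wild type replicate 3 came within a narrow margin of L100 replicate 1. The difference of 0.54 on the log2 scale had p = 0.1 in a two-sided exact permutation test, which is the smallest p that 3 against 3 libraries allow, and the ratio was chosen after the values were seen.

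The kernel genes of this enzyme were far lower. Shrunken-2 (sh2, GRMZM2G429899) encodes the endosperm large subunit and had 5, 3 and 1 counts in L100, against 9, 4 and 29 counts in wild type. Wild type replicate 3 alone held most of the sh2 counts. Brittle-2 (bt2), which encodes the endosperm small subunit, had 11.5, 10.2 and 9.33 CPM in L100, against 24.3, 6.90 and 13.99 CPM in wild type. The L100 libraries of bt2 lay close together and inside the wild type range. The fold change of bt2 was 0.686 with an interval of 0.341 to 1.38 (log2 -0.54 ± 0.44 SE, edgeR adjusted p = 0.739). Its log2 value was -0.02 without wild type replicate 1 and -0.60 without wild type replicate 3. Without wild type replicate 2 it was -0.88 (edgeR adjusted p = 0.223). The gene sh2 did not pass the filter. When every gene with at least 1 count was tested, its log2 fold change was -1.496 ± 0.868 SE, with an edgeR adjusted p of 0.653.

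Set against both kernel genes together, agpsl1 and GRMZM2G391936 held nearly all reads of these 4 genes; AGP2, a related gene outside this set, is described further on. The kernel genes sh2 and bt2 held, of those reads, 0.981% (95% exact binomial interval 0.787 to 1.21), 0.795% (0.616 to 1.01) and 0.959% (0.731 to 1.24) in L100 replicates 1 to 3. In wild type replicates 1 to 3 they held 1.91% (1.68 to 2.16), 0.622% (0.473 to 0.804) and 1.75% (1.52 to 2.01). Wild type thus contained both the lowest share and the highest ones. Per kilobase, the leaf genes held 99.2 ± 0.0885% in L100 and 98.8 ± 0.606% in wild type (SD, n = 3 each), a difference of 0.441 percentage points (two-sided exact permutation test, p = 0.4, where the smallest p this design allows is 0.1).

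**Figure D2:**
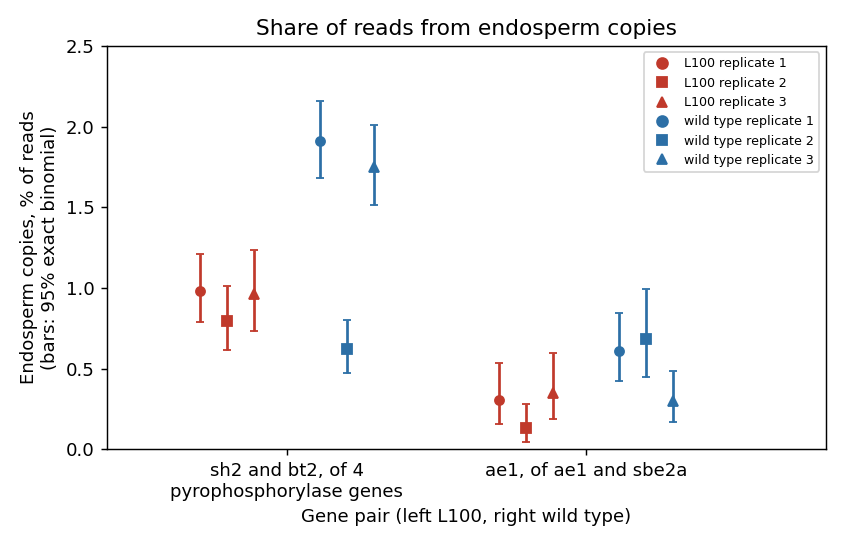
Percent of reads from the endosperm copies in each library, left for sh2 and bt2 among the 4 pyrophosphorylase genes and right for ae1 among ae1 and sbe2a, with L100 left of wild type. Bars are 95% exact binomial intervals, which cover counting error only; wild type replicates 1 and 3 lie highest on the left, and the lines overlap in both sets.

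Starch synthases showed the widest spread among the abundant members. The gene ss1, for the soluble starch synthase that extends short chains, had 428, 722 and 513 CPM in L100, against 350, 513 and 47.2 CPM in wild type. Wild type replicate 3 was the exception, with 0.109 times the mean of the other wild type libraries, while wild type replicate 2 lay within the range of L100 and wild type replicate 1 below it. The fitted level was 1.83-fold in L100, with an interval of 0.578 to 5.77 (log2 0.87 ± 0.72 SE, edgeR adjusted p = 0.748). Without wild type replicate 3 the log2 fold change was 0.36 ± 0.33 SE, with a 95% interval of -0.40 to 1.12 (edgeR adjusted p = 0.790).

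Members differed in how wild type replicate 3 compared with the other wild type libraries. The log2 level of that library minus the mean of wild type replicates 1 and 2 was -3.17 for ss1, and 1.58% of all tested genes had a difference as low or lower (0.1 CPM added to each value). The same difference was -0.15 for agpsl1, -0.27 for sbe2a, -0.24 for su1 and 0.11 for bt2, while GRMZM2G391936 and ae1 had -0.73 and -1.33. Among the members too low to be tested, du1 also had few counts in that library (1, against 23 and 7 in wild type replicates 1 and 2) and sh2 had more (29, against 9 and 4). The median over all tested genes was 0.01. In that library me3, a bundle sheath gene, had 6845 CPM, against 9996 and 11633 CPM in wild type replicates 1 and 2, and summed bundle sheath markers had 12044 CPM, against 19223 and 19929.6 CPM in wild type replicates 1 and 2. In bulk leaf RNA, fewer cells of a type and less RNA per cell cannot be told apart, and the part of cell composition in the ss1 value was not tested.

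Among 1506 other named genes with a mean of at least 5 CPM, those most like ss1 over the 6 libraries were G2-like1 (GRMZM2G026833), SCL25B (GRMZM5G867185) and Cab-m7 (GRMZM2G402936). Likeness was the root mean square difference of log2 CPM after centring each gene on its mean, and it was 0.18, 0.20 and 0.24 for these genes, against a median of 1.32 over all candidates. G2-like1, related to a transcription factor family of chloroplast development, had 157, 198 and 152 CPM in L100, against 136, 189 and 15.3 CPM in wild type. Cab-m7, by its name a chlorophyll a/b-binding protein gene, had 8068, 8949 and 6458 CPM in L100, against 6424, 7378 and 747 CPM in wild type. SCL25B had 20.6, 31.3 and 28.6 CPM in L100, against 16.6, 22.1 and 3.02 CPM in wild type. Being chosen for likeness to ss1, these genes had to share its low value in wild type replicate 3.

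**Figure D3:**
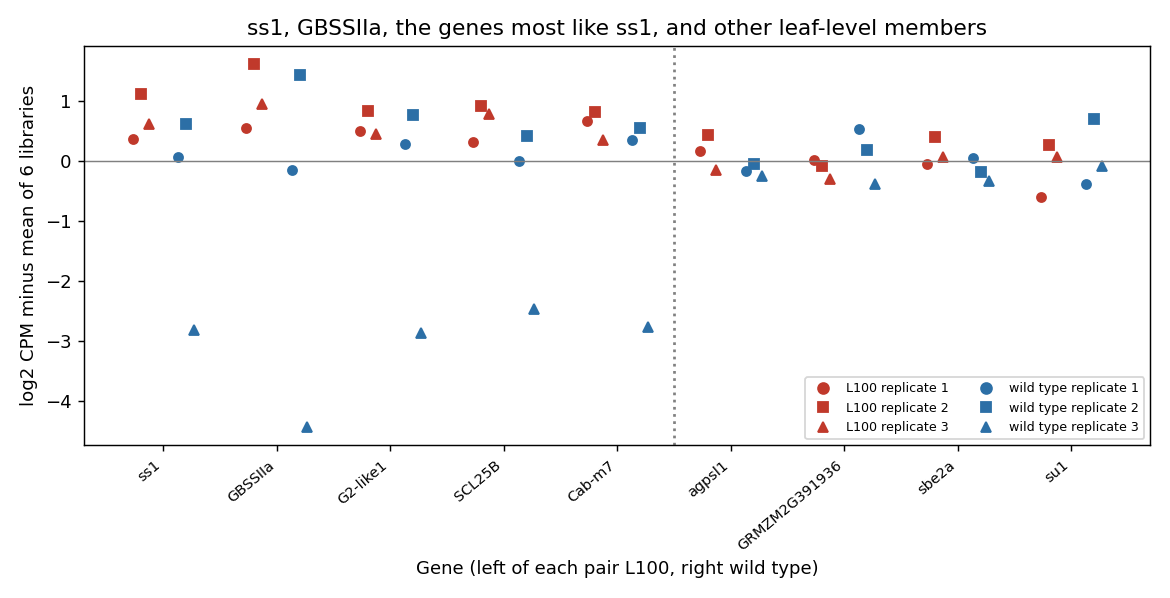
Log2 CPM of each gene in each library minus its mean over the 6 libraries, with L100 left of wild type; left of the dotted line ss1, GBSSIIa and the genes most like ss1, right of it the members agpsl1, GRMZM2G391936, sbe2a and su1. Wild type replicate 3 lies far below the other libraries left of the line; right of it the differences are smaller, though it is the lowest library in agpsl1, GRMZM2G391936 and sbe2a.

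The other synthase genes among the members were barely read in these leaves. Dull1 (du1, GRMZM2G141399), a large starch synthase known for its role in endosperm amylopectin, had 11, 1 and 4 counts in L100, against 23, 7 and 1 counts in wild type. Waxy1 (wx1, GRMZM2G024993), the granule-bound synthase that makes amylose in the kernel, had 3, 2 and 1 counts in L100, against 5, 0 and 0 counts in wild type. A count of 0 allows up to 3 counts, or 0.383 and 0.251 CPM, in wild type replicates 2 and 3. Neither gene passed the filter. With every gene tested that had at least 1 count, the log2 fold change was -0.48 ± 1.07 SE for du1 and 0.77 ± 1.41 SE for wx1, with edgeR adjusted p of 0.904 and 0.874. These standard errors are wide, so sizeable differences in either direction remain possible.

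A related granule-bound synthase gene that is not a member, GBSSIIa (GRMZM2G008263), was among the more abundant starch genes in 5 of the 6 libraries. It had 1084, 2263 and 1430 CPM in L100, against 669, 1988 and 34.1 CPM in wild type. Wild type replicate 3 was lowest again, at 0.0257 times the mean of the other wild type libraries, and 0.273% of all tested genes had a log2 difference as low or lower there. GBSSIIa did not pass the test (log2 fold change 0.83 ± 1.05 SE, edgeR adjusted p = 0.840), and without wild type replicate 3 the value was 0.26 ± 0.51 SE with an adjusted p of 0.923. It was 2.19 without wild type replicate 2 and 2.05 with limma-voom, and no alternative brought it past the threshold (adjusted p 0.327 to 0.992). Its level per kilobase was 2.69, 3.33 and 2.96 times that of ss1 in L100, against 2.03, 4.11 and 0.768 times in wild type. Both genes were low in wild type replicate 3, GBSSIIa by more, and the ratio was chosen after the values were seen. Its difference between the lines was 0.68 on the log2 scale (two-sided exact permutation test, p = 0.5, smallest possible 0.1) and ranged from 0.045 to 1.26 with 1 library left out.

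Among the members, branching enzymes were represented by a pair of close relatives. Of these, sbe2a is the one described from leaves and ae1, amylose extender, the one of the endosperm. Outside this pair, sbe1 gene models averaged 24.2 (GRMZM2G088753) and 13.1 (GRMZM2G088737) CPM per kilobase in L100, and 33.0 and 12.3 in wild type. For sbe3 (GRMZM2G005298) the mean was 5.22 in L100 and 3.80 in wild type. The shares of the pair given below leave these genes out. The gene sbe2a had 545, 751 and 597 CPM in L100, against 589, 502 and 450 CPM in wild type. L100 replicate 2 stood above the rest, and wild type replicate 1 lay among the L100 libraries. The fold change was 1.23 with an interval of 0.786 to 1.92 (log2 0.30 ± 0.28 SE, edgeR adjusted p = 0.773).

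For ae1 (GRMZM2G032628) the libraries held 12, 6 and 13 counts in L100, or 1.68, 0.974 and 2.09 CPM, against 35, 27 and 16 counts in wild type, or 3.59, 3.45 and 1.34 CPM. Wild type replicate 3 lay inside the range of L100, and the other wild type libraries above it. The fold change was 0.573 with an interval of 0.240 to 1.37 (log2 -0.80 ± 0.54 SE, edgeR adjusted p = 0.692). Leaving out wild type replicate 3 gave a log2 fold change of -1.15 ± 0.49 SE, with an unadjusted p of 0.0497 from edgeR that did not pass adjustment over all genes (0.494). In that fit 10.1% of all tested genes had an unadjusted p under 0.05.

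Of the reads of the branching pair, ae1 held 0.307% (95% exact binomial interval 0.159 to 0.536), 0.130% (0.0476 to 0.282) and 0.349% (0.186 to 0.597) in L100 replicates 1 to 3. In wild type it held 0.607% (0.423 to 0.843), 0.683% (0.450 to 0.992) and 0.297% (0.170 to 0.482). The lines overlapped through wild type replicate 3. Per kilobase, sbe2a held 99.7 ± 0.123% of the pair in L100 and 99.4 ± 0.216% in wild type (SD, n = 3 each), and the difference of 0.282 percentage points had p = 0.3 in a two-sided exact permutation test, for which 0.1 is again the smallest possible. As close relatives, these genes may share reads, and no source used here says how such reads were assigned. The same limit applies to agpsl1 and bt2, both small subunit genes, and so to the pyrophosphorylase shares.

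Debranching was represented by su1, the sugary1 isoamylase gene, named for sweet kernels. It had 21.1, 38.6 and 33.8 CPM in L100, against 24.7, 52.0 and 30.3 CPM in wild type. Wild type replicate 2 was highest, L100 replicate 1 lowest. The fold change was 0.874 with an interval of 0.490 to 1.56 (log2 -0.19 ± 0.36 SE, edgeR adjusted p = 0.901), and its sign turned without L100 replicate 1 (log2 0.03) or wild type replicate 2 (log2 0.19).

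**Figure D4:**
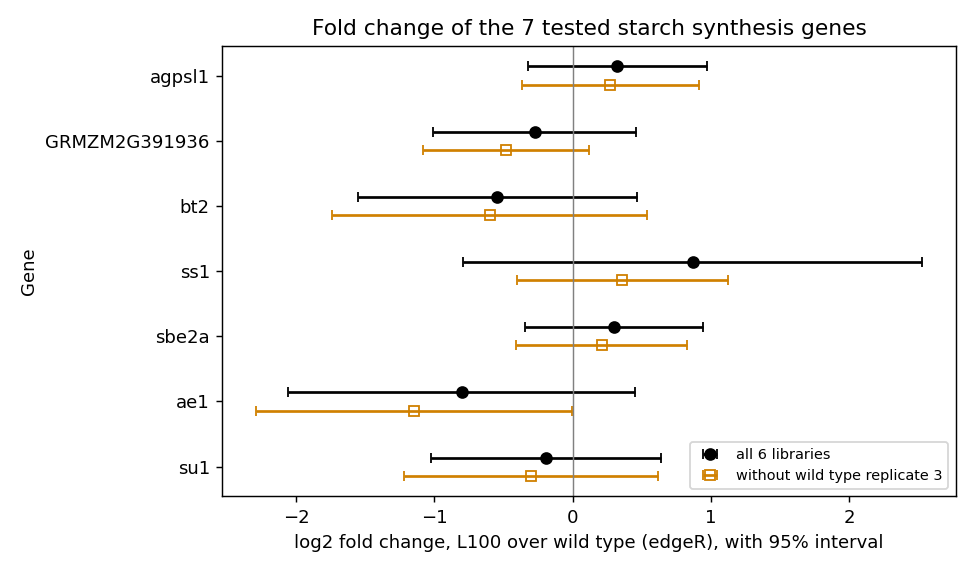
Log2 fold change, L100 over wild type, of the 7 members that passed the filter, with 95% intervals from edgeR, for all 6 libraries (filled circles) and without wild type replicate 3 (open squares). Every interval of all 6 libraries includes 0; without wild type replicate 3 the ae1 interval ends just below 0 and the ss1 interval is narrower.

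Within the lines, the spread of ss1 exceeded that of the other abundant members mainly through wild type replicate 3. The highest library of L100 had 1.501 times the CPM of the lowest for agpsl1, 1.26 times for GRMZM2G391936, 1.38 times for sbe2a and 1.69 times for ss1. In wild type the same ratio was 1.15 for agpsl1, 1.88 for GRMZM2G391936, 1.31 for sbe2a and 10.9 for ss1, whose libraries other than replicate 3 had 350 and 513 CPM. For agpsl1, ss1 and sbe2a the highest of all 6 libraries was L100 replicate 2, whereas for GRMZM2G391936 it was wild type replicate 1.

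The genes closest in pattern to agpsl1 and sbe2a differed from those closest to ss1. For agpsl1 they were PDK1 (GRMZM2G107196), cop2 (GRMZM2G028929) and kik1 (GRMZM5G889999), at root mean square differences of 0.070 to 0.082 log2, against a median of 0.465 over 1506 candidates. This PDK1, with a mean of 32.8 CPM, is not the mesophyll marker pdk1 (GRMZM2G306345), whose mean was 41952 CPM. For sbe2a the closest genes were prc2 (GRMZM2G111566), TIM (GRMZM2G030784) and CPK21 (GRMZM2G463464), at 0.085 to 0.090, against a median of 0.465. The centred log2 levels of agpsl1 and sbe2a themselves had an SD of only 0.26 and 0.25 over the 6 libraries.

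Starch metabolism beyond the members was followed in 14 further gene models found by symbol. Of these, 12 passed the filter and none was called by edgeR, DESeq2 or limma-voom; 6 had the higher fitted level in L100 and 6 the lower, with a median log2 fold change of -0.0042. An unadjusted p under 0.05 was found by edgeR for 1 of the 12, where 10.04% of all tested genes had one. This was zSSIIa (GRMZM2G348551), a starch synthase gene known as sugary2, named here after its values were seen. It had 8.53, 14.3 and 14.8 CPM in L100, against 5.44, 8.94 and 2.51 CPM in wild type. The fold change was 2.24 with an interval of 1.04 to 4.83 (log2 1.16 ± 0.48 SE, edgeR adjusted p = 0.474 over all genes). L100 replicate 1 lay just below wild type replicate 2, so that the lines overlapped.

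Besides GBSSIIa, the most abundant further synthesis gene was a gene with the name AGP2 (GRMZM2G027955), at 261, 385 and 298 CPM in L100, against 124, 338 and 118 CPM in wild type. Wild type replicate 2 lay within the L100 range and the other wild type libraries below it (log2 fold change 0.70 ± 0.45 SE, edgeR adjusted p = 0.678). Without wild type replicate 2 the log2 fold change was 1.39, with an edgeR adjusted p of 0.0762, the smallest of any gene on either list under the alternatives run. In that fit 18.2% of all tested genes had an unadjusted p under 0.05 (edgeR), against 10.04% with all 6 libraries. Another gene of that name, Agp2 or Agpsemzm (GRMZM2G106213), had 7 counts over the L100 libraries and 15 over the wild type libraries. On the supply side, phi1 (GRMZM2G065083), a glucose phosphate isomerase gene, averaged 171 ± 14.9 CPM in L100 and 183 ± 84.6 CPM in wild type (SD, n = 3 each), with an edgeR adjusted p of 0.951. The brittle-1 gene bt1 (GRMZM2G144081), the ADP-glucose carrier of endosperm plastids, had 0 counts in all 6 libraries, where up to 3 counts per library remain possible.

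On the list of breakdown genes, pho1 (GRMZM2G074158) had 15.9, 13.6 and 25.1 CPM in L100, against 15.5, 7.41 and 52.4 CPM in wild type. In contrast to ss1 and GBSSIIa, it was highest in wild type replicate 3. The pullulanase-type debranching gene zpu1 (GRMZM2G158043) had 19.0, 11.5 and 14.5 CPM in L100, against 34.5, 8.43 and 18.7 CPM in wild type. Neither passed the test (edgeR adjusted p = 0.856 for pho1 and 0.803 for zpu1), and the sign of the fold change turned for pho1 without wild type replicate 3 (log2 0.66) and for zpu1 without wild type replicate 1 (log2 0.14).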

How the data were processed

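RNA was extracted with Trizol and sequenced on Illumina libraries, per the labels' protocols. Bowtie 0.12.2 and the build B73 RefGen_v3 are named in the submitters' processing notes, and no source used here names the tool that counted reads. The deposited tables hold estimated counts per gene, FPKM values, a scaled signal (count times 1 factor per library) and gene lengths, per the file headers. Lengths were multiples of 3 for 88.7% of genes, so levels per kilobase are per largely coding length. The authors' estimated counts were whole (within 0.001) except for 0.300% of values, none of them of a member, and were rounded. The authors' FPKM served only to check the order of levels, and their scaled signal was not used.

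All genes were fitted together in edgeR 4.0.16 (R 4.3.3; quasi-likelihood test, TMM, filterByExpr, no block), with Benjamini-Hochberg adjustment over 18702 genes and a threshold of 0.05. The SE was taken from the fold change and its F statistic, and intervals (95%) use the fit's degrees of freedom. DESeq2 1.42.0 and limma-voom (limma 3.58.1) were alternatives, beside other scalings, filters, a replicate block and leaving out each library. The fits were tested on simulated data.

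Members and lists were chosen with earlier results of these data known. Named genes are all members, from the wider list any called gene and the 2 most abundant per role, and the 3 named genes most like the most abundant pyrophosphorylase, synthase and branching member. The genes zSSIIa, Agp2 (GRMZM2G106213), bt1, sbe1 and sbe3 were named after their values were seen. Names come from the members' list or from a RefSeq gene table of assembly Zm-B73-REFERENCE-NAM-5.0, which matched 8 of the 10 members and 47.4% of all gene IDs. A name match that the record's other names showed to be another gene was dropped. Protein sequences were not used here, so both leaf pyrophosphorylase genes were set together against sh2 and bt2. Replicates with the same number were not treated as pairs. Exact binomial intervals and floors cover counting error only, whereas the edgeR intervals of fold changes also include the spread among libraries.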

Additional observations from a re-analysis of the deposited data

How the results depend on the processing

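No alternative brought a member or a gene of the wider list past the threshold: with 1 library left out the count was 0 for both. Of 90 recomputed fold changes of members 88 kept their sign, with adjusted p from 0.223 (bt2 without wild type replicate 2) to 0.996. Over all alternatives log2 values lay between 0.26 and 2.19 for GBSSIIa, 0.44 and 1.39 for AGP2 (smallest adjusted p 0.0762) and 0.80 and 1.67 for zSSIIa (smallest 0.128). The number of all genes called was less stable. It was 156 with the settings as described, 570 with DESeq2 and 10 with a stricter filter (at least 1 CPM in all 6 libraries), and ranged from 0 to 222 with 1 library left out; it was 0 without L100 replicate 2 or 3 and 6 without L100 replicate 1. The cause was not tested. Log2 fold changes that turned sign with 1 library left out ranged from -0.40 to 0.19 for su1, -1.45 to 0.43 for BMY1, -0.89 to 0.66 for pho1, -0.81 to 0.14 for zpu1, -0.33 to 0.34 for phi1, -0.13 to 0.27 for sbe1 (GRMZM2G088737) and -0.063 to 0.254 for iso2. Log2 values ranged from 0.36 to 1.49 for ss1, 0.18 to 0.46 for agpsl1, 0.16 to 0.41 for sbe2a and -1.15 to -0.55 for ae1. They ranged from -0.48 to -0.04 for GRMZM2G391936 and from -0.88 to -0.02 for bt2. The log2 difference of the agpsl1 to GRMZM2G391936 ratio ranged from 0.32 to 0.73. The leaf share differences ranged from 0.227 to 0.788 percentage points for pyrophosphorylase and 0.201 to 0.404 for branching; no permutation test here, with 3 against 3 or 3 against 2 libraries, can reach 0.05.

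With the replicate number as a block, edgeR called 5 genes in all, none of them a starch gene. The block gave a log2 fold change of 1.32 for ss1 and 1.76 for GBSSIIa, against 0.87 and 0.83 without it. Deviations of same-numbered libraries from their group means correlated at 0.369, 0.340 and 0.0154 (Pearson, across 18702 genes, which are not independent). L100 replicate 1 with wild type replicate 2 gave -0.397, and L100 replicate 2 with wild type replicate 1 gave -0.290. L100 replicate 3 was near 0 with wild type replicate 2 as well (0.0517). Such values do not decide whether the numbers mark pairs, and they were not taken as pairs. Ranking members by the authors' FPKM, an alternative chosen after seeing the data, kept all 10 places in wild type and 8 in L100, where du1 and wx1 changed places. Depth limits sh2, du1, wx1 and ae1 most, with 1 to 35 counts per library where any were read.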
